A study of Mus musculus with 14 samples.

Results

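The nuclear factor I (NFI) genes of the mouse are Nfia, Nfib, Nfic and Nfix, and these 4 were taken by symbol from the 23284 genes in the count tables. NFI proteins bind DNA as homodimers and heterodimers at the palindrome TTGGC, 5 bases of any kind, GCCAA, through an amino-terminal domain that the paralogs share, and either activate or repress transcription. Nfib is needed for lung maturation and for brain development, and amplification of the gene is known from mouse and human small cell lung cancer, where it is linked to metastasis and to wide opening of chromatin.

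RNA sequencing had been done on 14 primary small cell lung cancers of genetically engineered mice. In 7 tumours Rb1 and Trp53, both tumour suppressor genes, had been deleted (RP), and in the other 7 Crebbp, which encodes a histone acetyltransferase and coactivator, was deleted as well (RPC), so that loss of Rb1 and Trp53 was common to both groups. The sources used here do not give how the alleles were deleted, in which cell type, or the age of the mice. The titles number the tumours without saying that each came from its own animal, and p-values therefore rest on sample-to-sample spread, which may be technical in part. The comparison of the genotypes asks how NFI levels differ with Crebbp deletion added to loss of Rb1 and Trp53.

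Libraries held 10060969 to 24052799 counts in genes, and 14804 genes, all 4 NFI genes among them, had enough counts to test. Levels are in CPM, counts scaled to library size, with TMM factors that correct for library composition. The neuroendocrine label was met in both groups: summed levels of the 6 markers Chga, Syp, Insm1, Uchl1, Ddc and Calca were 3330 to 8690 CPM in RP tumours, against 2800 to 4970 CPM with Crebbp deleted. RPC tumours 3, 5 and 6 stood apart from the other 11 libraries. Their 6 macrophage markers summed to 4.61 to 8.47 CPM (Emr1 at 0 counts in all 3) against 352 to 1070 CPM in RP and 248 to 1700 CPM in the other 4 RPC tumours. Fibroblast markers summed to 3.46 to 126 CPM against 213 to 820 and 256 to 603 CPM, endothelial markers to 1.97 to 85.2 CPM (Cdh5 and Emcn at 0 in all 3) against 74.4 to 207 and 42.1 to 252 CPM, and T and NK cell markers to 0.163 to 0.314 CPM (Cd3e and Nkg7 at 0) against 16.8 to 134 and 11.8 to 50 CPM. In bulk tissue, fewer cells of a type and less RNA per cell cannot be told apart. NFI values are given with and without these 3 libraries.

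Nfib was higher in RPC tumours than in RP tumours by an estimated 4.84 times in the mean, but the difference missed the threshold of the fit across all genes, and its size fell most when RPC tumour 3 or 5 was left out (log2 fold change 1.76 and 1.99 in place of 2.27). Nfia and Nfic had lower means in RPC tumours and Nfix a higher one, and none of these differences passed the test. Of the 4 NFI genes 0 were called by edgeR's quasi-likelihood test at a Benjamini-Hochberg adjusted p under 0.05 (1 had an unadjusted p under 0.05), against 2.21% of all tested genes in either direction, 1.09% higher and 1.12% lower. DESeq2 called 1 of the 4, Nfib, against 9.62% of all tested genes.

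The levels of Nfib in RP tumours 1 to 7 were 240, 53.9, 228, 169, 215, 151 and 184 CPM. In RPC tumours 1 to 7 they were 705, 215, 2408, 377, 1784, 281 and 233 CPM. Tumours 3 and 5 of the RPC group stood far above all others, tumour 1 came next, and tumours 2 and 7 lay inside the RP range. Thus 5 of 7 RPC tumours exceeded every RP tumour, a pattern that 4.26% of tested genes reached or passed, and without TMM scaling 6 of 7 did. The group means were 177 ± 63.2 and 858 ± 881 CPM (SD, n = 7 each). The log2 fold change was 2.27 (SE 0.58, edgeR adjusted p = 0.0522), and the mean log2 CPM differed by 1.77 (exact permutation test, two-sided, p = 0.00408, not adjusted for the number of genes). DESeq2 gave 2.27 (SE 0.52, adjusted p = 0.000928).

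Whether Nfib was called turned on single libraries. It passed in edgeR without RP tumour 3 (adjusted p = 0.0457), RPC tumour 2 (0.0459) or RPC tumour 7 (0.0285), and over the 14 fits that each left out 1 library the adjusted p ran from 0.0285 to 0.108. Without RPC tumours 3, 5 and 6 the mean of the remaining 4 RPC tumours was 383 ± 227 CPM (SD, n = 4), 2 of these 4 exceeded every RP tumour, and the log2 fold change was 1.12 (SE 0.39, edgeR adjusted p = 0.265). The exact two-sided permutation test there gave p = 0.0424, unadjusted. Adding the mean log2 level of the non-tumour markers to the model gave 0.93 (SE 0.51, adjusted p = 0.586). It was the mean over the endothelial, fibroblast, macrophage, T and NK, alveolar type 2 and club marker lists. Sftpb, Sftpc and Scgb1a1 in the alveolar and club lists are also among the Nfib-dependent lung genes described below. That marker mean was -0.57 to -0.45 on the log2 scale in RPC tumours 3, 5 and 6 and 3.11 to 6.09 in the other 11 libraries. RPC tumour 6, lowest of all on the marker scale, had 281 CPM of Nfib, while RPC tumour 1, at 3.62 on that scale, had 705 CPM. The 3 tumours with low markers are all RPC, so marker level and genotype cannot be told apart there. Whether marker level accounts for the difference in Nfib was not tested.

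**Figure D1:**
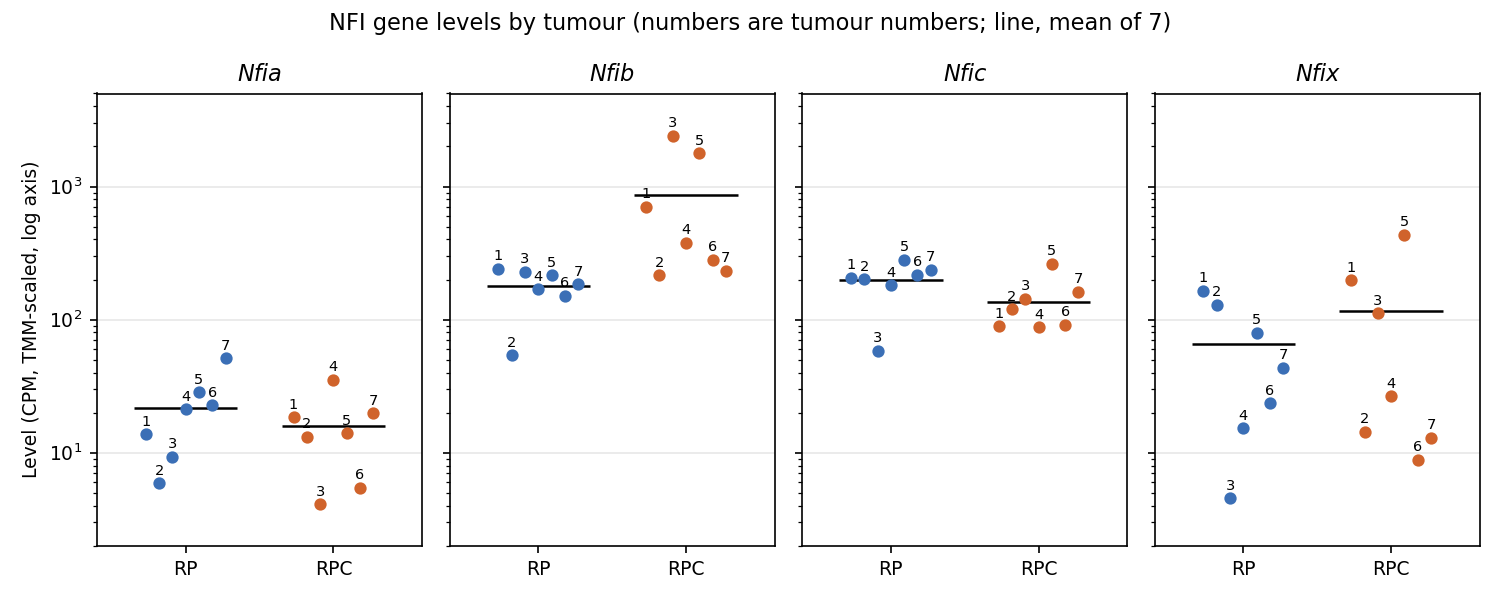
Levels of Nfia, Nfib, Nfic and Nfix in CPM (log axis) in each RP (blue) and RPC (orange) tumour, with tumour numbers beside the points and the mean of 7 as a line. RPC tumours 3 and 5 lie at 2408 and 1784 CPM for Nfib, against at most 240 CPM in RP tumours, and the groups overlap for every gene.

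Nfix, which in development promotes the differentiation of neural stem cells and the fetal programme of muscle, varied most within both genotypes. RP tumours 1 to 7 had 164, 129, 4.56, 15.3, 79.6, 23.5 and 43.6 CPM, a 36.0-fold range. RPC tumours 1 to 7 had 198, 14.3, 112, 26.6, 435, 8.85 and 12.9 CPM, a 49.1-fold range. Only RPC tumours 1 and 5 exceeded every RP tumour, and the groups otherwise overlapped. The means were 65.6 ± 61.1 and 115 ± 157 CPM (SD, n = 7 each), and the fitted log2 fold change was 0.82 (SE 0.91, edgeR adjusted p = 0.625; exact permutation p = 0.815). RPC tumour 5 alone gave that fold change its sign: without it the value was -0.07 (adjusted p = 0.972), and without RPC tumours 3, 5 and 6 it was -0.05 (adjusted p = 0.994).

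Nfic, which is broadly expressed and known for its part in tooth root formation, had a 4.82-fold range in RP and a 3.02-fold range in RPC tumours, against 4.45-fold and 11.2-fold for Nfib. Its levels in RP tumours 1 to 7 were 207, 201, 58.5, 181, 282, 217 and 237 CPM. In RPC tumours 1 to 7 they were 89.4, 120, 144, 87.2, 263, 91.4 and 162 CPM. RP tumour 3 was the lowest of all and RPC tumour 5 the highest of its group. No RPC tumour lay outside the RP range, but 6 of 7 lay under the RP median. These 6 also lay under the 181 CPM of the RP tumour next above RP tumour 3. Means of 198 ± 69.2 and 137 ± 62.9 CPM (SD, n = 7 each) differed by -0.53 on the log2 scale of the fit (SE 0.31, edgeR adjusted p = 0.346; exact permutation p = 0.175). Without RPC tumours 3, 5 and 6 it was -0.78 (SE 0.34, adjusted p = 0.383). Leaving out RP tumour 3 alone gave -0.69 (SE 0.25, edgeR adjusted p = 0.101), and RPC tumour 5 alone -0.77 (SE 0.29, 0.179).

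Nfia, which switches neural progenitors towards glia, had the lowest mean CPM of the 4 genes in both genotypes, although Nfix was lower in 5 of 14 tumours. RP tumours 1 to 7 had 13.7, 5.89, 9.29, 21.2, 28.4, 22.8 and 51.2 CPM, and RPC tumours 1 to 7 had 18.4, 13.2, 4.09, 35.3, 14, 5.45 and 19.8 CPM. RPC tumours 3 and 6 were below every RP tumour and no RPC tumour was above them all. The log2 fold change was -0.47 (SE 0.51, edgeR adjusted p = 0.613; exact permutation p = 0.413), between means of 21.8 ± 15.2 and 15.8 ± 10.5 CPM (SD, n = 7 each). It was -0.003 without RPC tumours 3, 5 and 6 (adjusted p = 0.999) and -0.10 without RP tumour 7 (adjusted p = 0.933). Counts behind the values were lowest for Nfia, from 39 to 838 per library, and ranged from 613 to 32857 for Nfib. Whether the fold change of Nfib differs from those of its paralogs was not tested.

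**Figure D2:**
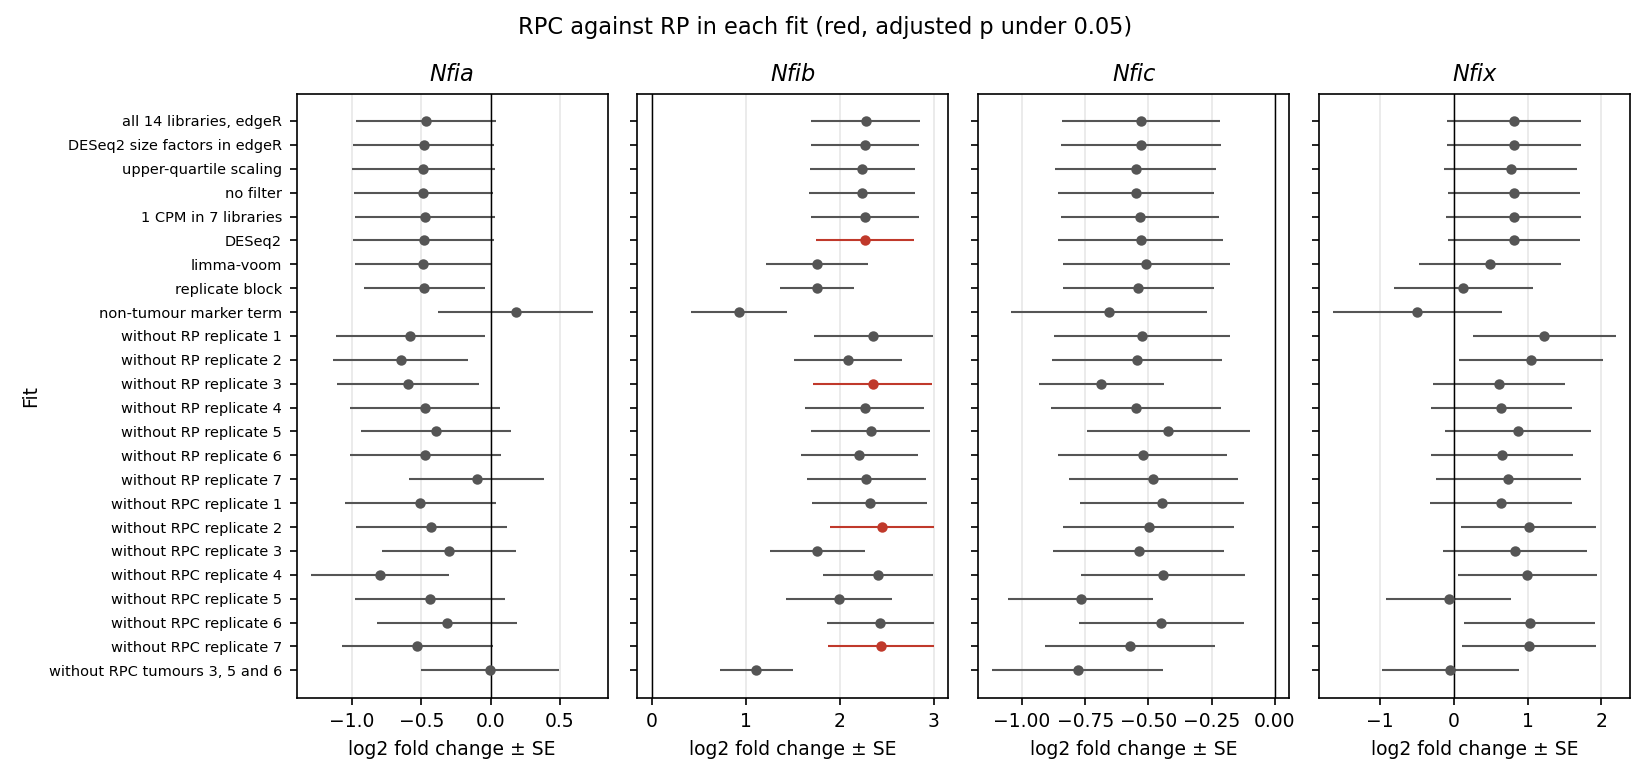
Log2 fold change of RPC against RP (point) with its standard error (bar) for each NFI gene in each fit, with red points where the adjusted p was under 0.05. Nfib stays above 0 throughout, from 0.93 to 2.45, and is red in 4 fits, while Nfia and Nfix change sign between fits.

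The make-up of the family was compared per length, dividing CPM by the longest annotated transcript (9526 bases for Nfia, 9116 for Nfib, 6237 for Nfic and 5476 for Nfix). On this scale Nfic had the highest level of the 4 in 6 of 7 RP tumours, with Nfib highest in RP tumour 3, and Nfib had the highest level in 6 of 7 RPC tumours. The exception was RPC tumour 7, where Nfic and Nfib made up 46.4% and 45.7% of the summed level. Nfia was the lowest in 13 of 14 tumours, the exception being RP tumour 3, where Nfix was lower. Per coding length or with no length scaling Nfia was the lowest in 4 of 7 RP and 5 of 7 RPC tumours.

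The share of Nfib in the summed NFI level was 29.0%, 9.49%, 69.1%, 35.2%, 27.4%, 28.5% and 28.2% in RP tumours 1 to 7. In RPC tumours 1 to 7 it was 59.6%, 50.3%, 85.7%, 64.7%, 61.4%, 64.7% and 45.7%. All RPC tumours were therefore above 6 of the 7 RP tumours and RP tumour 3 was above all but 1 RPC tumour. The mean share was 32.4% ± 18 (RP) and 61.7% ± 12.8 (RPC; SD over 7 tumours each), and 55.1% ± 8.66 in the 4 RPC tumours other than 3, 5 and 6. The mean share of Nfic went the other way, from 47.8% ± 12.1 to 24.6% ± 15.3, and those of Nfix and Nfia were 16.2% ± 13.9 and 3.52% ± 2.15 in RP against 11.5% ± 10.3 and 2.25% ± 2.02 in RPC tumours. These shares follow from the levels already given and were not tested.

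A high share of Nfib came with different levels in different tumours. In RP tumour 3 the level of Nfib itself was within the RP range, and it was Nfic and Nfix that were the lowest of the RP group, so that the 3 other paralogs summed to 11.2 CPM per kb against 34.1 to 64.5 in the other RP tumours. In RPC tumours 3 and 5 the summed level of all 4 genes was 308 and 319 CPM per kb, against 36.2 to 90.9 in RP tumours. RPC tumours 2, 4, 6 and 7 had sums of 46.9, 63.9, 47.7 and 56.0, inside the RP range. The median sum was 62.3 in RP and 63.9 in RPC tumours.

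**Figure D3:**
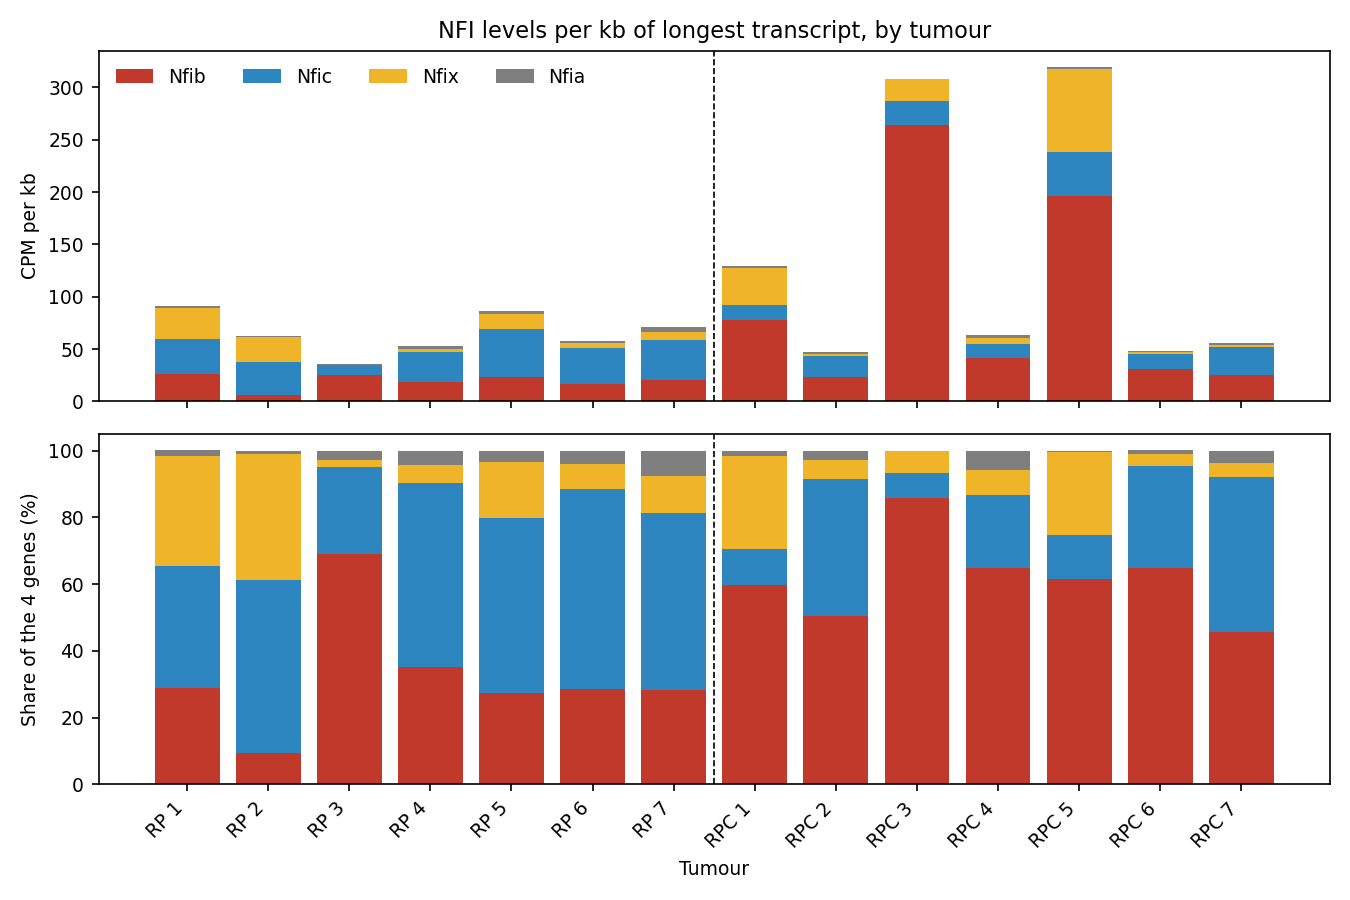
NFI levels per kb of the longest transcript in each tumour, stacked as CPM per kb (upper) and as a share of the 4 genes in percent (lower), with RP tumours on the left of the dashed line and RPC tumours on the right. Nfib makes up 45.7% to 85.7% of the sum in RPC tumours and 9.49% to 69.1% in RP tumours, and only RPC tumours 1, 3 and 5 have a sum above every RP tumour.

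Paralogs were not found to rise and fall together from tumour to tumour. Correlations of log2 CPM were taken within the 11 libraries other than RPC tumours 3, 5 and 6, since those form a cluster of their own, and 6 pairs were examined. The 11 libraries include both genotypes, and differences between the genotypes were not removed from these values. Strongest in size was Nfib with Nfic, at Pearson r = -0.512 (permutation p = 0.112, adjusted over the pairs 0.422) and Spearman rho = -0.500 (permutation p = 0.121, adjusted 0.498), and r = -0.530 without the 2 libraries farthest from the median of Nfib. Nfic with Nfix gave r = 0.409 (permutation p = 0.211) and rho = 0.382 (0.249), but r = -0.01 without the 2 libraries farthest from the median of Nfic, so this relation rested on those 2. Nfia with Nfib gave r = 0.424 (permutation p = 0.186) and rho = 0.07 (0.838), with r = 0.106 after the same step. Nfia with Nfic gave r = 0.261 (0.438) and rho = 0.409 (0.214), Nfia with Nfix r = -0.02 (0.960) and rho = 0.07 (0.838), and Nfib with Nfix r = 0.05 (0.889) and rho = 0.182 (0.593), by the same permutation tests. Their values without the 2 farthest libraries were r = 0.394, 0.281 and 0.07. No pair had an adjusted p under 0.05, the lowest being 0.422. Within the 7 RP tumours alone, r and rho were 0.754 and 0.464 for Nfic with Nfix, where RP tumour 3 was lowest for both. They were 0.500 and 0.786 for Nfia with Nfic, 0.513 and 0.07 for Nfia with Nfib, and -0.189 and 0 for Nfib with Nfic. Nfia with Nfix had -0.03 and -0.07, and Nfib with Nfix -0.322 and 0.07. These values describe 7 points and were not tested.

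Nfib and Nfia both lie on chromosome 4, as does Mycl1, a MYC-family oncogene that is also amplified in small cell lung cancer. In the gene order of the RefSeq GRCm38.p6 assembly 37 tested genes lie between Nfib and Nfia and 179 between Nfia and Mycl1. Mycl1 was at 5882, 1346, 2875, 4508, 315, 6228 and 503 CPM in RPC tumours 1 to 7, and at 12.6 to 316 CPM in RP tumours. The order of tumours differed from that for Nfib: RPC tumour 5 was second for Nfib and lowest of its group for Mycl1, and RPC tumour 6 was highest for Mycl1 and below 4 other RPC tumours for Nfib. RPC tumours 1, 3, 4 and 6 were above every RP tumour for both genes. RPC tumour 3 was at the median of its group for Mycl1.

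**Figure D4:**
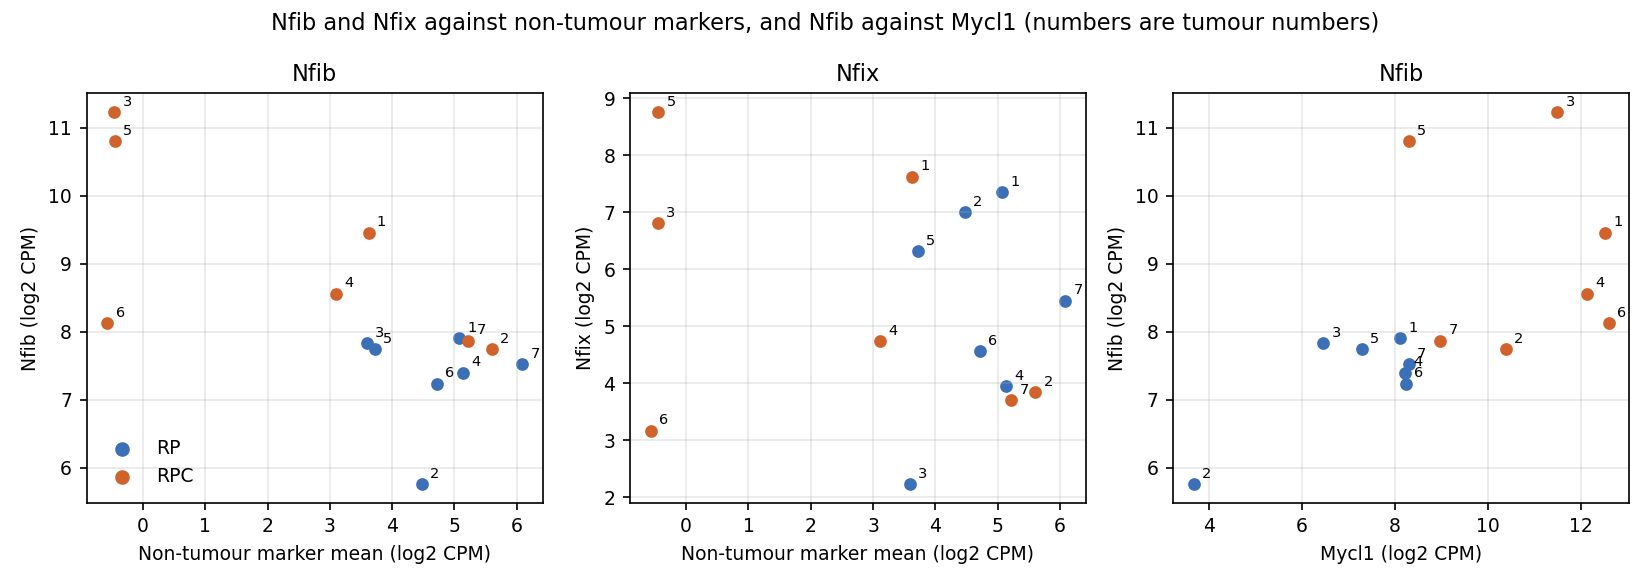
Log2 CPM of Nfib and of Nfix against the mean log2 level of non-tumour markers, and of Nfib against Mycl1, one point per RP (blue) or RPC (orange) tumour with its number. RPC tumours 3, 5 and 6 lie between -0.57 and -0.45 on the marker axis, far from the other 11 libraries at 3.11 to 6.09, yet differ widely from each other in Nfib and Nfix.

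The 5 tested genes on each side of each NFI gene were then examined, to show whether high NFI levels came with high levels of nearby genes. Around Nfib, 8 of 10 neighbours had positive log2 fold changes, with a median of 1.21 against 0.002 over all tested genes and 0.68 without RPC tumours 3, 5 and 6. By edgeR 0 of the 10 were called, against 2.21% of all tested genes, and 7 had an unadjusted p under 0.05, against 3156 of 14804. By DESeq2 5 of the 10 were called, against 9.62%. Medians were -0.17 for the neighbours of Nfia, -0.15 for those of Nfic and 0.27 for those of Nfix, of which edgeR called 0, 0 and 1 (DESeq2 1, 1 and 1).

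Some neighbours of Nfib were high in 1 or more of RPC tumours 1, 3 and 5, but not the same ones in each, and others were not high there. The nearest tested gene on one side, Zdhhc21, which encodes a palmitoyltransferase, was at 300, 70.2, 1640, 95.2, 356, 117 and 146 CPM in RPC tumours 1 to 7 and at 60.1 to 138 CPM in RP tumours. RPC tumours 1, 3 and 5 were far above the RP range and RPC tumour 7 just above it (log2 fold change 2.04, SE 0.64, edgeR adjusted p = 0.0941). On the other side the nearest named gene, Mpdz, a scaffold with many PDZ domains, was at 491 CPM in RPC tumour 1 and at 79.1 to 100 CPM in the other RPC tumours, against 8.26 to 112 CPM in RP tumours (1.27, SE 0.56, adjusted p = 0.209).

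Other neighbours likewise did not share 1 pattern. Relative to the RP mean on the log2 scale, Frem1, an extracellular matrix gene, was at 3.9 in RPC tumour 1 and 5.28 in RPC tumour 3 but 1.55 in RPC tumour 5. Snapc3, a subunit of the small nuclear RNA activating complex, was at 3.01 and 2.59 in RPC tumours 1 and 5 but 0.39 in RPC tumour 3. Ptprd, a receptor tyrosine phosphatase, was at 5.04 in RPC tumour 5, -0.24 in RPC tumour 3 and -2.69 in RPC tumour 1. D4Bwg0951e, 3 tested genes from Nfib, was at -1.55, -1.48 and -3.04 in RPC tumours 1, 3 and 5. Frem1, Snapc3, Ptprd and D4Bwg0951e were chosen after their values were seen. Neighbours that exceeded the RP mean by 2 or more on the log2 scale numbered 4, 3 and 3 of 10 in RPC tumours 1, 3 and 5, 1 each in RPC tumours 2 and 7 and RP tumour 3, and 0 in the other 8 libraries. Around Nfia no neighbour reached that level in any library, and its nearest neighbours Cyp2j6 and Tm2d1 had log2 fold changes of -0.50 (SE 0.61) and -0.11 (SE 0.19). The share of all tested genes at that level was not counted in each library, so the numbers of neighbours have no background to be read against. DNA copy number was not analysed here. The strand setting of the counting is not known, so overlapping genes may share reads.

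**Figure D5:**
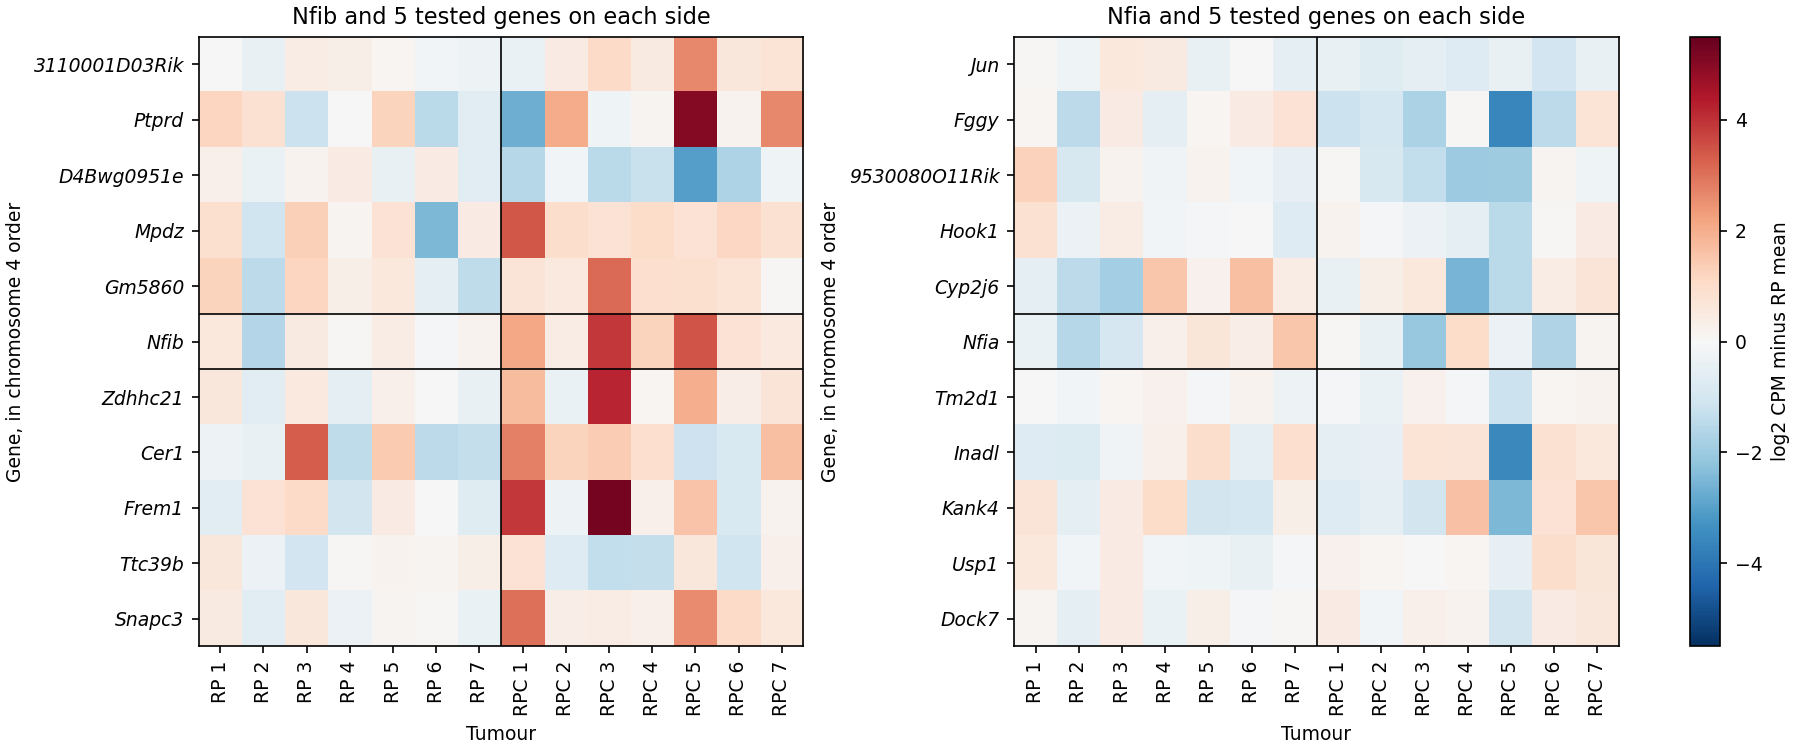
Log2 CPM minus the RP mean for Nfib (left) and Nfia (right) with the 5 tested genes on each side in chromosome 4 order, in each RP and RPC tumour. High values sit beside Nfib in RPC tumours 1, 3 and 5, where 4, 3 and 3 of 10 neighbours exceed the RP mean by 2 or more, and none sit beside Nfia. The share of all tested genes that do so in each tumour was not counted.

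Of the 40 neighbours of the 4 genes, edgeR called 1, a share near the 2.21% of all tested genes and so no result about the neighbours. It was Gadd45gip1, which encodes a mitochondrial ribosome protein and lies 2 tested genes from Nfix, and it rose from a mean of 14.1 ± 4.30 to one of 35.4 ± 17.3 CPM (SD over 7 tumours each), and 6 of 7 RPC tumours exceeded the highest RP tumour. The fitted log2 fold change was 1.33 with an SE of 0.31 (edgeR, adjusted p = 0.0388). Gadd45gip1 no longer passed when RP tumour 2, 4, 5, 6 or 7 was left out (adjusted p = 0.0701, 0.0739, 0.0633, 0.0896 and 0.0679), or RPC tumour 1, 3, 5 or 6 (0.0560, 0.0771, 0.0568 and 0.0572). Leaving out RPC tumours 3, 5 and 6 together gave 1.26 (0.193), and the marker mean in the model gave an adjusted p of 0.266.

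Genes whose pattern over the 14 tumours was most like that of each NFI gene were named by Spearman's rho, among 13281 tested genes with a mean of at least 1 CPM. As the extremes of that many genes measured in the same libraries they carry no p. For Nfib they were Gng10, a G protein gamma subunit gene of chromosome 4 (rho = 0.938), Zfp280c (0.938), Zc3hc1 (0.934), the splicing factor gene Rbm25 (0.934) and Gadd45gip1 (0.934). Within the 11 libraries their rho with Nfib was 0.936, 0.909, 0.891, 0.918 and 0.900, which ranked them 5, 15, 33, 12 and 18. The names therefore depend in part on RPC tumours 3, 5 and 6. Gng10 ranged only from 44.3 to 96.9 CPM while Nfib ranged from 53.9 to 2408 CPM, so the likeness is one of order, not of size.

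The genes most like Nfic were Anks1b (rho = 0.947), the transcriptional repressor gene Bcl6 (0.938), Dtx1, a Notch pathway ubiquitin ligase (0.921), Cacng2, an auxiliary subunit of AMPA receptors (0.912), and Tmem106b (0.899). For Nfix they were Celsr2, an atypical cadherin (0.886), Efs (0.868), Rnf165 (0.864), Mapt, which encodes the microtubule protein tau (0.855), and Naif1 (0.846). For Nfia they were Itm2c (0.890), Ttc28 (0.873), the growth factor gene Fgf5 (0.842), Lynx1 (0.842) and Pik3ap1 (0.837). In the 11 libraries rho ran from 0.873 to 0.955 for the genes named with Nfic, from 0.736 to 0.873 for those named with Nfix and from 0.727 to 0.855 for those named with Nfia. Their ranks there ran from 2 to 61, from 4 to 85 and from 3 to 69. None of these 15 genes was called between genotypes (edgeR adjusted p from 0.220 to 0.946).

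Genes known as targets of NFI proteins in the nervous system did not move one way. Of 18 listed, 14 could be tested and 1 rose, 0 fell and 13 were not called by edgeR (5 had an unadjusted p under 0.05), with 7 fold changes positive, 7 negative and a median of -0.37, or -0.04 without RPC tumours 3, 5 and 6. Over all tested genes edgeR called 2.21%, and 3156 of 14804 had an unadjusted p under 0.05. The gene that rose was Sox9, which encodes a transcription factor of glial and airway progenitors and which, as a regulator upstream of Nfia and as a partner of its protein, stood in 3 of the lists. Sox9 was at 0.183 to 1.26 CPM in RP tumours and at 0.879, 3.97, 13.7, 4.47, 72.0, 6.97 and 2.63 CPM in RPC tumours 1 to 7, so that 6 of 7 exceeded the highest RP tumour. The fitted log2 fold change of Sox9 was 4.60 with an SE of 0.93 (edgeR, adjusted p = 0.0255). Sox9 no longer passed when RP tumour 2, 5 or 6 or RPC tumour 3 was left out (adjusted p = 0.0538, 0.0526, 0.0575 and 0.0513), nor when RPC tumours 3, 5 and 6 were left out together (2.27, adjusted p = 0.161). It was also lost with the replicate number as a block (0.0795), with the marker mean in the model (0.257) and in limma-voom (0.103). Without RPC tumour 5 alone the value was 3.14 (adjusted p = 0.0312).

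Hes1, a Notch effector that NFI proteins repress in neural progenitors, had means of 23.8 ± 9.64 (RP) and 9.69 ± 5.04 CPM (RPC; SD over 7 tumours each), and 3 RPC tumours were below every RP tumour. Its fitted log2 fold change was -1.30 with an SE of 0.45 (edgeR, adjusted p = 0.125). Grin2c, a glutamate receptor subunit of mature granule neurons, had -2.10 (SE 0.86, adjusted p = 0.176), Cntn2, an axonal adhesion protein, -1.07 (SE 0.47, 0.204) and Insc, a spindle orientation factor, -1.50 (SE 0.69, 0.224). Gfap, Fabp7, Gabra6 and Mmd2 were too low to test, and Gabra6 had 0 counts in all 14 libraries.

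Lung genes that depend on Nfib in development did not pass the test: of 6 tested, edgeR called 0 (0 at an unadjusted p under 0.05, and 0 by DESeq2), with a median log2 fold change of -0.05, or 0.63 without RPC tumours 3, 5 and 6. Over all tested genes these shares were 2.21%, 3156 of 14804 and 9.62%. The lung genes with the smallest p were Scgb1a1, the secretoglobin of club cells (-0.97, SE 1.57), the surfactant protein genes Sftpa1 (0.40, SE 1.38) and Sftpb (-0.37, SE 1.39), and the water channel gene Aqp5 (-0.07, SE 0.75). These genes are also markers of normal alveolar and club cells. Summed levels of the 4 alveolar type 2 markers were 51.5 to 141 CPM in RPC tumours 3, 5 and 6, 157 to 1330 CPM in RP and 106 to 2260 CPM in the other RPC tumours. That sum includes Abca3, which is not among the 6 lung genes. In RPC tumours 3, 5 and 6 Sftpa1 was at 0.105 to 0.271 CPM, Sftpb at 0.0543 to 0.447 and Scgb1a1 at 0.358 to 1.57. RP tumours had 3.82 to 210, 10.9 to 316 and 12.9 to 2110 CPM. Sftpc and Pdpn were at 8.4 to 19.3 and 0 to 0.217 CPM, against 35.9 to 852 and 2.98 to 10.6 CPM in RP. Aqp5, at 1.52 to 12.8 CPM, overlapped the RP range of 3.4 to 26.3 CPM. The part of normal cells in the values was not tested.

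Among 8 genes for factors known to act with NFI proteins, Sox9 rose and 7 were not called by edgeR, with a median log2 fold change of -0.09. Over all tested genes edgeR called 2.21%. Foxa2, a pioneer factor of endoderm, had means of 239 ± 61.3 (RP) and 148 ± 39.7 CPM (RPC), which differed by -0.69 (SE 0.21, adjusted p = 0.0827). Its relative Foxa1 had means of 363 ± 149 and 329 ± 164 CPM and a log2 fold change of -0.14 (SE 0.34). The corepressor gene Ski had -0.35 (SE 0.25) and Tbp, the TATA-binding protein, -0.13 (SE 0.27). Of 5 upstream regulators 3 could be tested, and beside Sox9 the receptor gene Notch1 had -0.26 (SE 0.45) and Rbpj, the DNA-binding effector of Notch, 0.07 (SE 0.16). Pax6 and Pou3f2 were too low to test.

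Promoter windows of RefSeq genes (GRCm38.p6, 250 bases before to 50 after the start) were searched for the full NFI palindrome, which reads the same on both strands. It was found in 12 of 32851 windows, or 0.0365%, and in 0 of the 6 windows of Nfia, Nfic and Nfix. The table of windows has none for Nfib. The 5 tested genes that hold it are shown, since they are the closest match to the recognition sequence in these windows, with the TTGGC and GCCAA arms in capitals. The stretches lie at chr3:85746281-85746335 (minus strand, Fam160a1), chr4:41755461-41755515 (plus, Galt), chr3:107931840-107931894 (minus, Gstm7), chr6:114397762-114397816 (plus, Hrh1) and chr5:114923111-114923165 (plus, Oasl1).
Fam160a1: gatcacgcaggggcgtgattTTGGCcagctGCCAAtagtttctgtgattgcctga
Galt: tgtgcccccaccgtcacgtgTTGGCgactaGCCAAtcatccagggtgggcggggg
Gstm7: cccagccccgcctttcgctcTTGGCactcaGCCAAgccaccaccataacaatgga
Hrh1: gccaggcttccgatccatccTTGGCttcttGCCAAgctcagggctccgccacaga
Oasl1: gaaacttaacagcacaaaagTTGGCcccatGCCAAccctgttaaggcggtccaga

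The arms are the same in the 5 genes because the search required them, and the spacer and flanks differ. All 5 had negative log2 fold changes, and edgeR called 0 (1 had an unadjusted p under 0.05). Over all tested genes 50.2% had positive log2 fold changes, edgeR called 2.21%, and 3156 of 14804 had an unadjusted p under 0.05. Fam160a1 had -1.15 (SE 0.51, adjusted p = 0.210), from 92.1 ± 50.7 to 41.4 ± 26 CPM (SD, n = 7 each). Oasl1, an interferon-induced gene, had -1.25 (SE 0.66, adjusted p = 0.291), the histamine receptor gene Hrh1 -0.58 (SE 0.57), Gstm7, a glutathione transferase, -0.07 (SE 0.57), and Galt, an enzyme of galactose metabolism, -0.07 (SE 0.26). Their median was -0.58 over all libraries and -0.001 without RPC tumours 3, 5 and 6. A match of letters does not show binding, and a single arm, TTGGC or its complement, is present in 46.7% of all windows.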

How the data were processed

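The deposited files give raw read counts per gene for each tumour, as whole numbers that the authors did not normalize. The submitters' processing notes name HTSeq 0.6.1, TopHat2 2.0.12, bcl2fastq 1.8.2 and the build mm9. The sources used here give neither the annotation nor the strand setting. In each file 5 rows do not name a gene and were dropped. Reads outside genes were 15.1% to 20.5% of a file and multiply aligned reads 8.4% to 11.2%.

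In R 4.3.3, edgeR 4.0.16 was used for the filter (filterByExpr with its defaults of 10 and 15 counts), for TMM scaling and for the quasi-likelihood F test (no covariate, 14 libraries), with Benjamini-Hochberg adjustment over all genes. SE is the fold change divided by the root of F. DESeq2 1.42.0, limma-voom (limma 3.58.1) and other settings were alternatives. Log2 CPM used a prior count of 2. Exact permutation tests covered all 3432 splits (smallest p 0.000583), or 330 for 7 against 4 tumours (0.00606). Correlations used 100000 permutations. Lengths are from GENCODE M21 transcripts, and gene order and promoters from RefSeq GRCm38.p6, whose coordinates differ from mm9: the only coordinates given are those of the promoter stretches, on GRCm38.p6. Libraries of the same genotype differed by more than sampling noise in all 42 pairs (chi-square per degree of freedom at least 62.1).

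The NFI genes, lists and named-gene rule were chosen with earlier results of these data known. The rule took all 4 members, Mycl1, called list members with up to 4 others of smallest p and at least 1 CPM, called and nearest neighbours, and for each member the 5 genes with the highest rho, leaving out predicted and sex genes. On counts simulated for this comparison (14597 genes), 28.9% of 97 genes changed 2-fold and 71.9% of 96 changed 4-fold were recovered, with 5 false among 102 calls. Of the neuroendocrine markers listed, 1 is not reported here, and the marker sum was taken without it.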

Additional observations from a re-analysis of the deposited data

Results flagged for a closer look

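Each NFI gene's level, its share of the family and the family sum were checked in each genotype for a tumour lying far from the other 6, by the gap to its nearest neighbour as a part of the group's range. This gave 2 of 18 groups, where chance gives about 1 in 20 for a single group. Shares and sums come from the same levels, so the groups are not independent and 2 of 18 is not read as an excess. Both gaps were close to the critical value of 0.568, at 0.573 (Nfic) and 0.568 (share of Nfib) of the range. Nfic in RPC tumour 5 was at 263 CPM, the next highest RPC tumour being at 162 CPM. The share of Nfib in RP tumour 3 was 69.1%, the next highest RP tumour being at 35.2%. In that tumour Nfib was at 228 CPM, within the range of its group, and Nfic and Nfix were at 58.5 and 4.56 CPM, the lowest of theirs.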

How the results depend on the processing

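The log2 fold change of Nfib stayed positive in 23 of 23 alternative fits and passed the threshold in DESeq2 (2.27) and in 3 fits that left out 1 library, whose values over all 14 ran from 1.76 to 2.45. That of Nfic stayed negative in 23 of 23, from -0.78 to -0.42, and was not called in any. Nfia changed sign with the non-tumour term (0.18), and ran from -0.80 to -0.10 with 1 library left out. Nfix changed sign with that term (-0.49) and without RPC tumours 3, 5 and 6 (-0.046), and ran from -0.073 to 1.22 with 1 library left out. The cause of these changes was not tested. The count of 327 called genes was 1424 in DESeq2, 503 in limma-voom, 7 with the non-tumour term, 11 without the 3 tumours, and 51 to 898 with 1 library left out.

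With the replicate number as a block the count was 74, Nfib was at 1.76 (adjusted p = 0.0714) and Nfix at 0.13. The titles do not say that same-numbered tumours belong together. Correlations of same-numbered tumours ran from -0.05 to 0.32, over 0.1 in 3 of 7 pairs, and 2 of 7 pairs correlated best with each other. Whether the numbers stand for more than a label was not tested. Called neural targets and called partners, 1 gene each over all libraries, became 2 in DESeq2 and 0 in limma-voom, with the block, with the term and without the 3 tumours. Called upstream regulators, also 1, became 0 in the last 4 of these fits. All 3 counts ran from 0 to 1 with 1 library left out. Over all 14 libraries rho of Nfia and Nfib was -0.27 in place of 0.07, and the other 5 pairs kept their sign. Dividing by coding length, chosen after the data were seen, or by no length gave Nfib mean shares of 36.0% and 39.9% in RP and 66.1% and 69.9% in RPC tumours. Per coding length Nfib was the highest paralog in 7 of 7 RPC and 1 of 7 RP tumours. A 2-fold change was missed more often than not in simulation, which limits what an uncalled gene shows.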
